A study of Homo sapiens with 8 samples.

Results

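The regions described here are the stretches of human chromosome 1 where CUT&Tag peaks were called for either of 2 histone marks, H3K23su (succinylation of histone H3 at lysine 23) and H3K27ac (acetylation at lysine 27). Every peak on chromosome 1 in the 8 peak lists was taken, and within a mark peaks with a base in common, or directly adjacent, were joined to form 1 region. This gave 11765 H3K23su regions, which were 9.60% of the 122500 regions of that mark in the genome, and 12786 H3K27ac regions, which were 9.56% of 133786. The cells were HCT15, an established human colon cancer line, as parental cells given DMSO as vehicle (HCT15-Pa) and as a line selected for resistance to 5-fluorouracil and labelled with 20 µg/ml of the drug (HCT15-FR). Each line had 2 libraries per mark, and no source used here says whether the 2 came from separate cultures, so the spread between them may be technical. The methods state that resistant cells were grown without drug before experiments. HCT15-FR was a single selected line, so that resistance and any other trait of that line cannot be told apart. All coordinates are those of hg19, the build of the peak lists.

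CUT&Tag sends a transposase to an antibody-bound mark, where it cuts and tags the DNA, so that a peak marks a place where tagged DNA piled up. H3K27ac lies on active promoters and enhancers, while lysine succinylation, made from succinyl-CoA, is a less studied acyl mark that has also been found on active chromatin. 5-Fluorouracil blocks thymidylate synthase and is a standard drug for colorectal cancer. The number of tagged fragments at a place also depends on how many copies of that DNA a cell carries, and DNA content was not measured in these data.

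A region was called FR-only when both HCT15-FR libraries and no HCT15-Pa library had a peak in it, Pa-only in the reverse case, shared when all 4 libraries of the mark had one, and single-library when 1 did. The presence of peaks in the same libraries chose these classes, so that their counts are given as a description without a test. Intervals in brackets are exact (Clopper-Pearson) 95% binomial intervals and cover counting error only, since neighbouring regions are not independent. Peak scores are −log10 P values from the peak caller, and a percentile of a score is its rank within its own library's list, which takes out the difference in scale between libraries.

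The sequences below are the middle 200 bases, on the + strand, of H3K23su regions on chromosome 1, of which 2 were FR-only and 3 Pa-only, whose weaker peak ranked among the highest 3 of their class. They are shown because they are among the clearest members of each class, and capitals mark matches to the AP-1 motif TGANTCA, read on both strands. Of the 5, 3 held a match: 1 FR-only and 2 Pa-only sequences.
FR-only, chr1:21791686-21791885, intron of NBPF3: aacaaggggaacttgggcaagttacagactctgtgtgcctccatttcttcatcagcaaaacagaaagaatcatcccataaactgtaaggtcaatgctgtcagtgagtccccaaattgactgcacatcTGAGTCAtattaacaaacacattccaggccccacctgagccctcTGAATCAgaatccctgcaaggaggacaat
FR-only, chr1:22223273-22223472, within HSPG2: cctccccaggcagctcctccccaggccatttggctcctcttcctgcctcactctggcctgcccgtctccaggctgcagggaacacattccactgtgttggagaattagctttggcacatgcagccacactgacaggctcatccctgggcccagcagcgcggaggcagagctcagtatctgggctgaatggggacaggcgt
Pa-only, chr1:210827242-210827441, intron of HHAT: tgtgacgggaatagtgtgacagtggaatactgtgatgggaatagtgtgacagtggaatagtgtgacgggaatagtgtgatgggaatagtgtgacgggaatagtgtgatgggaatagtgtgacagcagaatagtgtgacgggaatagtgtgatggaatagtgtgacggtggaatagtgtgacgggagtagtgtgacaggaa
Pa-only, chr1:28640564-28640763, between genes near MED18: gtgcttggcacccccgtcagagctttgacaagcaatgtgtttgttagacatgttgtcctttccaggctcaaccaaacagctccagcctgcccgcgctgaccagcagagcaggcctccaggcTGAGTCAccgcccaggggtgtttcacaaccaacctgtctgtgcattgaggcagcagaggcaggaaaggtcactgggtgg
Pa-only, chr1:161494116-161494315, promoter of HSPA6: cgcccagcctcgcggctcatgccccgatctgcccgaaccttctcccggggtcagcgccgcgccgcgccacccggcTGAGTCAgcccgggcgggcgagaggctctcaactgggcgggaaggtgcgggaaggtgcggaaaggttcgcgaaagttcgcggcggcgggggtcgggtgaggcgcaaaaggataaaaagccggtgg

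Both FR-only sequences lie between 21 and 23 Mb from the end of the short (p) arm, whereas the Pa-only ones are spread over both arms. The NBPF3 region (chr1:21791404-21792167) scored 10.4 and 10.3 in HCT15-FR replicates 1 and 2. The HSPG2 region (chr1:22222793-22223952), within the gene for the basement membrane protein perlecan, scored 8.31 and 8.48. Neither had a peak in either HCT15-Pa library. The HHAT region (chr1:210827210-210827474) scored 8.67 and 9.12 in HCT15-Pa replicates 1 and 2, and its letters repeat a short unit throughout. The MED18 region (chr1:28640471-28640856) scored 7.69 and 7.12, and a Pa-only H3K27ac region overlapped it. The HSPA6 region (chr1:161493807-161494624) scored 6.47 and 6.48 and covers the start of a gene for an inducible heat shock protein. The 3 Pa-only regions had no peak in HCT15-FR.

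For H3K27ac the highest-ranked FR-only region was chr1:7338050-7338960, in an intron at 7 Mb, with scores of 18.4 and 18.6 in HCT15-FR, and an FR-only H3K23su region overlapped it. Next came chr1:63953026-63953833 (16.9 and 15.5), at a transcript start near EFCAB7, and chr1:246760310-246761523 (13.8 and 13.3), in an intron of CNST near the end of the long (q) arm. The highest Pa-only H3K27ac region was chr1:47573497-47574144 near CYP4A22, a cytochrome P450 gene, with scores of 14.7 and 16.4 in HCT15-Pa. The promoter of HENMT1, whose enzyme methylates the ends of piRNAs, followed at chr1:109203482-109204388 with 11.1 and 12.05. The third, chr1:2064507-2065454 (9.20 and 9.41), lies close to the end of the p arm, inside the stretch where FR-only regions prevailed.

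The lines matched their label as colon epithelial cells: of 10 colon epithelium markers, 6 to 9 had a promoter peak per library and 6 (EPCAM, KRT8, KRT18, VIL1, CDH1 and HNF4A) had one in all 8. Of 8 markers of other cell types, 2 to 3 had a peak per library, ACTA2 in all 8, and PTPRC, CD3E, COL3A1 and ALB in none. The colon markers KRT20, CDX1 and CDH17 had no promoter peak in any HCT15-Pa library. No pair of libraries looked like a duplicate: same-line pairs shared 47.5 to 58.0% of the chromosome 1 regions found in either, and pairs between lines 41.8 to 43.3%.

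Chromosome 1 took a larger share of the HCT15-FR peak lists than of the HCT15-Pa lists in both marks. For H3K23su, chromosome 1 held 6316 and 6242 peaks in HCT15-Pa replicates 1 and 2 (9.55% of each list), and 6930 and 6894 peaks in HCT15-FR (10.1% and 10.2%). For H3K27ac it held 6708 and 6603 peaks in HCT15-Pa (9.34% and 9.35%), and 7465 and 7775 in HCT15-FR (10.1% of each list). The HCT15-FR libraries lay above the HCT15-Pa libraries in both marks with no overlap. The mean share was 9.55% ± 0.000500 (SD, n = 2) in HCT15-Pa against 10.15% ± 0.0193 in HCT15-FR for H3K23su, and 9.35% ± 0.00887 against 10.1% ± 0.0209 for H3K27ac. The covered length, which depends on both number and width of peaks, was 4.23 Mb ± 0.0357 in HCT15-FR against 3.26 Mb ± 0.0108 for H3K23su and 4.81 Mb ± 0.0423 against 3.77 Mb ± 0.0475 for H3K27ac (mean ± SD, n = 2). Peaks were wider in HCT15-FR over the whole lists, not on chromosome 1 alone. The median width of all H3K23su peaks was 387 and 386 bp in HCT15-Pa and 451 and 447 bp in HCT15-FR. For H3K27ac it was 403 bp in each HCT15-Pa library and 483 and 467 bp in HCT15-FR. On chromosome 1 the mean of the medians was 394 against 469 bp and 414 against 485 bp.

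Most of this excess sat in the first 30 Mb of the p arm, with 0.484 of 0.600 percentage points for H3K23su and 0.671 of 0.779 for H3K27ac. The rest of the p arm added 0.103 and 0.0673 points, and there too the libraries of the lines did not overlap. Over those first 30 Mb, H3K23su peaks were 2.29% and 2.26% of the HCT15-Pa lists and 2.76% of each HCT15-FR list. H3K27ac peaks there were 2.32% and 2.40% of the HCT15-Pa lists and 3.10% and 2.96% of the HCT15-FR lists. The ratio of the mean shares, HCT15-FR over HCT15-Pa, was 1.21 for H3K23su and 1.28 for H3K27ac in these 30 Mb. In the rest of the p arm it was 1.03 and 1.02, and on the q arm 1.00 and 1.01, where the H3K27ac values of the lines overlapped. The limit of 30 Mb was set by the peak lists themselves, as described below, so these ratios are a description.

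**Figure D1:**
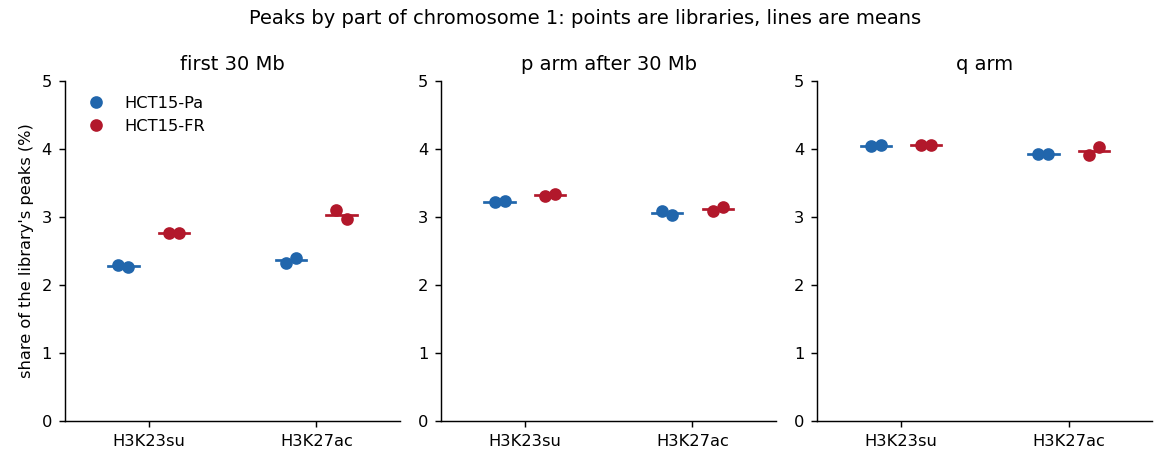
Share of each library's peaks (%, vertical axis) that lay in the first 30 Mb of chromosome 1, in the rest of the p arm and on the q arm, with 1 point per library (blue HCT15-Pa, red HCT15-FR, n = 2 each) and a line at the mean. Red points stand clear of blue in the first 30 Mb for both marks (2.76% against 2.26 to 2.29% for H3K23su) and lie close to them elsewhere.

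On chromosome 1, 1061 H3K23su regions were FR-only, which was 9.02% (8.51 to 9.55) of its regions, beside 7.95% of the regions of all chromosomes. Pa-only H3K23su regions numbered 481, or 4.09% (3.74 to 4.46), beside 5.01% of all. For H3K27ac, 1256 regions were FR-only, 9.82% (9.31 to 10.4) beside 9.08% of all, and 475 were Pa-only, 3.72% (3.39 to 4.06) beside 4.53% of all. Shared regions made up 25.3% of chromosome 1 for H3K23su (2978) and 26.6% for H3K27ac (3407). The largest group was single-library regions, with 2597 of H3K23su in 1 HCT15-FR library and 2720 in 1 HCT15-Pa library, and 2873 and 2845 of H3K27ac. The rest had peaks in 2 or 3 libraries of mixed lines. Line-restricted peaks were weak and narrow: the weaker peak of an FR-only H3K23su region stood at a median percentile of 27.3 and that of a Pa-only region at 25.7, against 53.002 for shared regions, and the median widths were 540, 485 and 1103 bp. For H3K27ac the percentiles were 34.1, 28.3 and 61.5, and the widths 541, 513 and 1087 bp. Single-library regions had median widths of 224 to 233 bp.

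The balance of FR-only and Pa-only regions differed between the arms. Of FR-only plus Pa-only H3K23su regions, 68.8% (66.4 to 71.1) were FR-only on chromosome 1, with 72.7% on the p arm (673 against 253) and 63.0% on the q arm (388 against 228), beside 60.6% on the other autosomes. For H3K27ac the share was 72.6% (70.4 to 74.7), with 76.9% on the p arm (790 against 237) and 66.2% on the q arm (466 against 238), beside 66.2% on the other autosomes. Chromosome 1 ranked 1 of 22 autosomes by this share in both marks. The other 21 ranged from 37.8 to 67.6% for H3K23su, with chromosome 19 the highest, and from 44.2 to 70.2% for H3K27ac, with chromosome 12 the highest.

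In the first 30 Mb the share was 83.3% (79.3 to 86.7) for H3K23su, with 343 FR-only and 69 Pa-only regions, and 87.8% (84.4 to 90.7) for H3K27ac, with 390 and 54. The rest of chromosome 1 held 718 against 412 H3K23su regions (63.5%) and 866 against 421 H3K27ac regions (67.3%), which lies within a few points of the other autosomes. Without the first 30 Mb, chromosome 1 ranked 5 of 22 for H3K23su and 11 of 22 for H3K27ac. The line-restricted classes were not alone in this. Of single-library regions in the first 30 Mb, 55.4% (52.6 to 58.2) of H3K23su and 62.2% (59.7 to 64.7) of H3K27ac came from an HCT15-FR library, against 45.6% and 44.2% on the other autosomes. Of regions found in 3 libraries there, 80.5% and 80.7% had both HCT15-FR libraries, against 62.6% and 61.1% on the other autosomes.

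**Figure D2:**
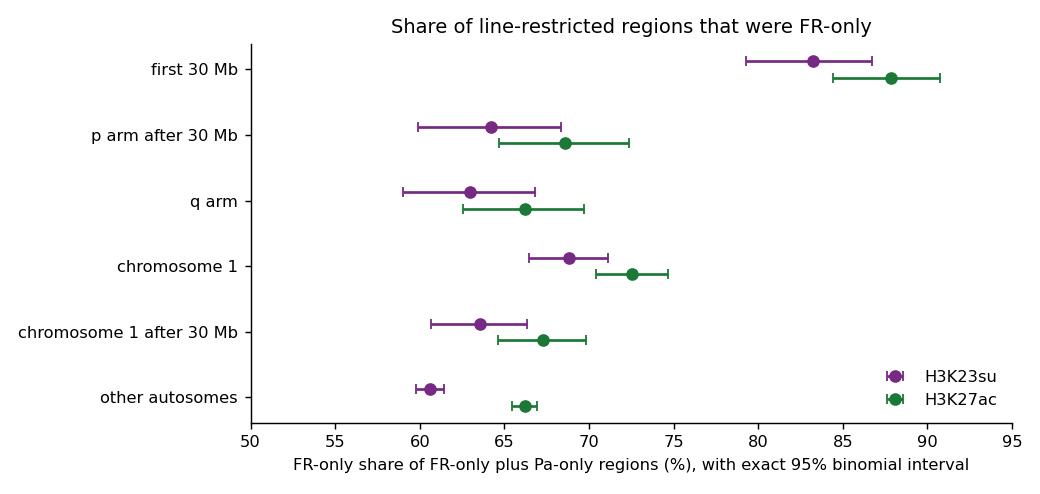
FR-only share of FR-only plus Pa-only regions (%, horizontal axis, starting at 50) by part of chromosome 1 and for the other autosomes, with exact 95% binomial intervals as bars, purple for H3K23su and green for H3K27ac. The first 30 Mb stand apart at 83.3% and 87.8%, while the other parts drawn lie between 60 and 73%.

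The gain skew started at the end of the p arm in both marks. All of the first 6 bins of 5 Mb had more FR-only than Pa-only regions and a larger share of both HCT15-FR lists than of both HCT15-Pa lists. Taken singly, such bins were also found elsewhere. The other autosomes had 331 H3K23su and 381 H3K27ac bins with at least 20 FR-only plus Pa-only regions. Of these, 82 and 79 reached the lowest FR-only share of the 6 bins (70.8% and 77.6%). The lowest difference of the 6, 20 and 27 regions, was reached by 51 and 38. Bin by bin, the H3K23su counts of FR-only against Pa-only regions were 34 against 14, 58 against 8, 47 against 4, 68 against 18, 81 against 13 and 55 against 12. The H3K27ac counts were 60 against 7, 71 against 13, 53 against 5, 78 against 8, 90 against 10 and 38 against 11. The seventh bin, 30 to 35 Mb, dropped to 17 against 16 and 29 against 22, and in it both HCT15-FR libraries of each mark had a smaller share of their peaks than both HCT15-Pa libraries. The first FR-only region on the chromosome was chr1:18169-18548 for H3K23su and chr1:237609-237900 for H3K27ac. For H3K23su this was a lone weak region (weaker peak at percentile 21.3), as the first megabase held 1 FR-only and 1 Pa-only region. It therefore does not place the start of the skew more finely.

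Where the skew ended depended on what it was measured against. The stretch of adjacent bins with the largest excess of FR-only regions over the share on the other autosomes ran from bin 1 to bin 47 for H3K23su (0 to 235 Mb, 1026 FR-only and 458 Pa-only regions, 69.1%) and to bin 49 for H3K27ac (0 to 245 Mb, 1242 and 466, 72.7%). Nearly the whole chromosome lay within it. Its last FR-only regions were chr1:234987323-234987948 for H3K23su and chr1:244960172-244960490 for H3K27ac. Measured against the share on chromosome 1 itself, a reference chosen after the data had been seen, the stretch was bins 1 to 6 in both marks, or 0 to 30 Mb. By single regions in place of bins this stretch ran from 1102662 to 29493130 for H3K23su (337 FR-only and 63 Pa-only regions) and from 237609 to 27935631 for H3K27ac (385 and 47). The last FR-only regions before 30 Mb were chr1:29652411-29652843, near the receptor phosphatase gene PTPRU, for H3K23su and chr1:29517619-29518225, near the splicing factor gene SRSF4, for H3K27ac.

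By intervals chosen after the values were seen, the drop fell between 28 and 30 Mb. From 25 to 28 Mb there were 36 FR-only and 2 Pa-only H3K23su regions, and 33 and 4 of H3K27ac. From 28 to 30 Mb the counts were 19 and 10 for H3K23su and 5 and 7 for H3K27ac. From 30 to 33 Mb they were 11 and 12, and 19 and 13. Within the first 28 Mb, 3 single megabases had more Pa-only than FR-only regions in 1 of the marks. From 17 to 18 Mb there were 7 FR-only and 11 Pa-only H3K23su regions, whereas H3K27ac had 11 and 6. The interval from 4 to 6 Mb held few regions, with 1 and 2 of H3K23su and 1 and 1 of H3K27ac from 4 to 5 Mb, and 3 and 2, and 2 and 4, from 5 to 6 Mb.

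The chromosome and the limit of 30 Mb were chosen with all libraries known, so that the values by replicate are a description. When the stretch was set with replicate 1 of each line alone, or with replicate 2 alone, it was bins 1 to 6 in both marks. Read in the pair that had not set it, the HCT15-FR share of regions restricted to 1 line was 67.6% and 66.6% for H3K23su and 69.5% and 71.3% for H3K27ac. In the same pairs that share was 52.1 to 57.2% on the rest of chromosome 1 and 51.6 to 54.5% on the other autosomes. No stretch of 6 adjacent bins on another autosome had as large an excess. Among 357 such windows for H3K23su with at least 100 line-restricted regions, the highest share was 78.0% (chromosome 4, 92 against 26) and the largest difference 143 regions (chromosome 11), against 274 in the first 30 Mb of chromosome 1. Among 399 windows for H3K27ac these were 83.8% (chromosome 4, 119 against 23) and 161 regions (chromosome 11), against 336.

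**Figure D3:**
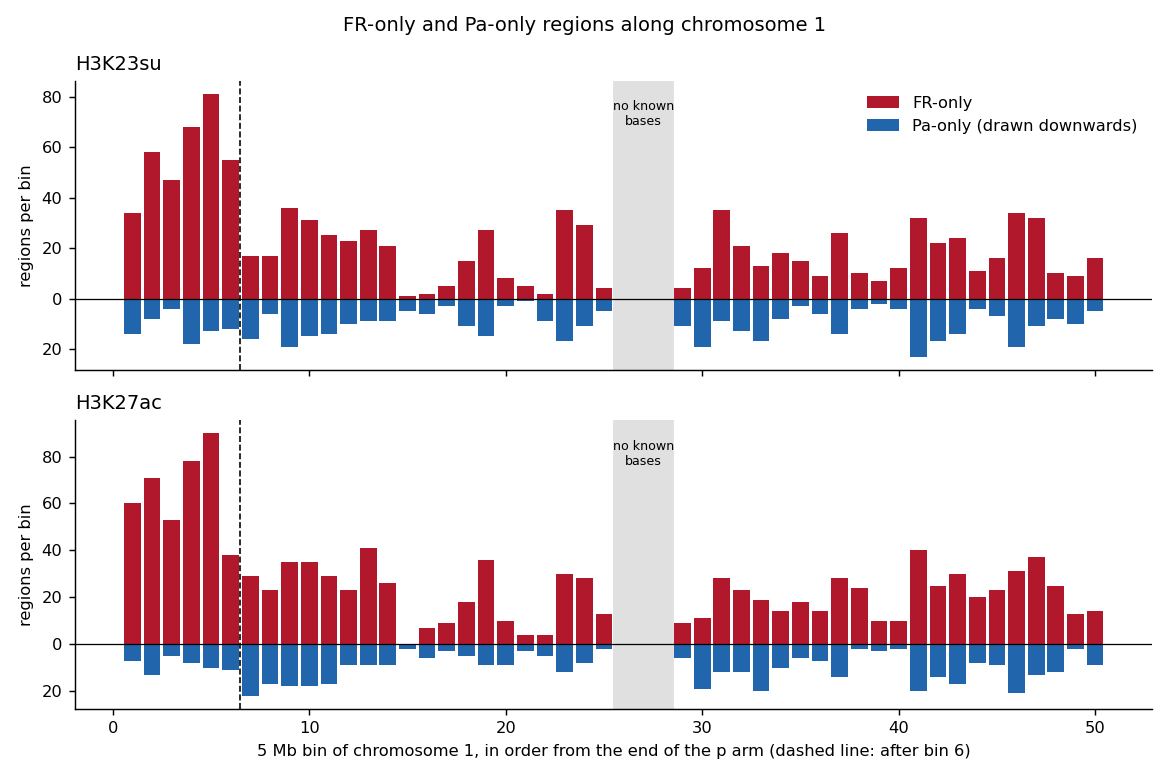
FR-only (red, upwards) and Pa-only (blue, downwards) regions per 5 Mb bin of chromosome 1 (horizontal axis, bins 1 to 50 from the end of the p arm; vertical axis, number of regions), with H3K23su above and H3K27ac below; grey marks the run of unknown bases at the centromere and the dashed line 30 Mb. Red bars of the first 6 bins (34 to 81 and 38 to 90 regions) fall to 17 and 29 in bin 7.

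Past 30 Mb, FR-only regions outnumbered Pa-only ones in 33 of 41 H3K23su bins and 37 of 41 H3K27ac bins. In all, regions were found in 47 bins, and none lay in the run of 21.05 Mb of unknown bases at the centromere. Pa-only regions outnumbered FR-only ones in 8 H3K23su bins and 4 H3K27ac bins. The 4 were among the 8, so that both marks ran the other way there: 70 to 75 Mb (1 against 5, and 0 against 2), 105 to 110 Mb (2 against 9, and 4 against 5), 145 to 150 Mb (12 against 19, and 11 against 19) and 160 to 165 Mb (13 against 17, and 19 against 20). The stretch with the largest deficit of FR-only regions against the other autosomes was 120 to 150 Mb for H3K23su (20 against 35) and 140 to 170 Mb for H3K27ac (104 against 79), both around the start of the q arm. Measured by single regions against an even split, the H3K27ac deficit was sharpest from 201219808 to 202130559, with 2 FR-only and 13 Pa-only regions. On the q arm, the interval from 185 to 190 Mb held 24 FR-only and 2 Pa-only H3K27ac regions (92.3%), with 10 and 4 for H3K23su. Over the 31 bins with at least 20 line-restricted regions in both marks, the shares of the 2 marks had a Pearson r of 0.760 (Spearman rho 0.645), and without the first 30 Mb r was 0.642 over 25 bins. These bins share cell lines, and neighbouring bins share DNA.

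By single megabases, the most FR-only regions of both marks together lay at 19 to 20 Mb (43 against 1 Pa-only), 22 to 23 Mb (42 against 2), 10 to 11 Mb (39 against 0), 16 to 17 Mb (37 against 3), 8 to 9 Mb (37 against 4) and 15 to 16 Mb (35 against 3). All 6 lay in the first 30 Mb. The windows with the largest Pa-only excess lay outside it, at 149 to 150 Mb (1 FR-only against 13 Pa-only), 210 to 211 Mb (1 against 12), 164 to 165 Mb (1 against 10), 109 to 110 Mb (5 against 12), 201 to 202 Mb (10 against 17) and 205 to 206 Mb (9 against 15).

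Regions with a peak in all 4 libraries moved in the same direction in the first 30 Mb. The 798 shared H3K23su regions there had a median score percentile of 67.5 and 66.3 in HCT15-Pa replicates 1 and 2 and of 82.3 and 81.9 in HCT15-FR. The median difference per region, HCT15-FR minus HCT15-Pa, was 11.5 percentile points, against 1.24 over 25754 shared regions of the other autosomes. Both HCT15-FR percentiles lay above both HCT15-Pa percentiles in 51.1% of these regions (408) and below them in 8.15% (65), against 24.8% and 18.9% on the other autosomes. The 939 shared H3K27ac regions had medians of 72.5 and 72.1 in HCT15-Pa and 79.96 and 80.1 in HCT15-FR, a median difference of 5.51 points against −0.0659 on the other autosomes. HCT15-FR lay above in 48.7% (457) and below in 10.7% (100), against 25.7% and 26.0%. The peaks in these regions were also wider in HCT15-FR, by a median ratio of 1.34 for H3K23su (1.15 on the other autosomes) and 1.198 for H3K27ac (1.09). On the q arm the differences were 1.503 and 0.0590 points, close to the other autosomes.

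By bin, the median difference of shared H3K23su regions was 9.64 to 15.9 points in the first 6 bins and −6.05 to 5.15 in the 39 later bins with at least 10 shared regions, with no overlap. Of 474 bins on the other autosomes, 3 reached 9.64. For H3K27ac the first 6 bins had 3.43 to 7.69 points, and 2 of 40 later bins and 26 of 481 bins on the other autosomes reached 3.43. Across the edge, the H3K23su difference went from 13.3 points at 25 to 28 Mb to 3.48 at 28 to 30 Mb, 2.91 at 30 to 33 Mb and −1.10 at 33 to 36 Mb. For H3K27ac it went from 3.796 to 2.33, −1.36 and −2.67. The part of DNA copy number in these values was not tested.

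**Figure D4:**
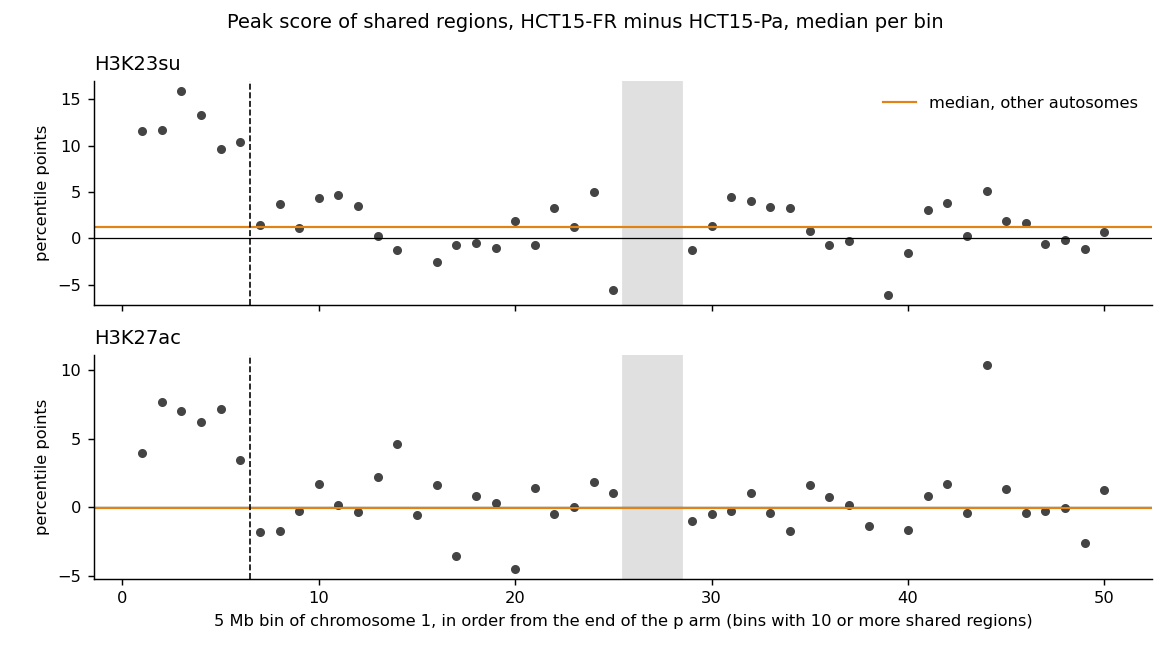
Median difference in peak score percentile, HCT15-FR minus HCT15-Pa (vertical axis, percentile points), of regions with a peak in all 4 libraries, per 5 Mb bin of chromosome 1 (horizontal axis; bins with at least 10 shared regions; dashed line at 30 Mb; grey, unknown bases; orange line, median of the other autosomes). The first 6 points lie at 9.64 to 15.9 for H3K23su (upper panel) and 3.43 to 7.69 for H3K27ac (lower panel), above all later H3K23su points and all but 2 later H3K27ac points.

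The genomic setting and sequence of the regions did not enter the rule. FR-only H3K23su regions lay in introns in 63.5% and between genes in 19.5%, and 9.80% (8.08 to 11.8) were at promoters, taken from 1 kb before to 100 bp after an annotated transcript start. Pa-only regions were intronic in 53.02%, intergenic in 27.4% and at promoters in 10.8% (8.18 to 13.9), and shared regions were at promoters in 29.9%. For H3K27ac, 57.7% of FR-only regions were intronic, 25.7% intergenic and 7.56% at promoters, against 48.6%, 25.9% and 15.2% of Pa-only regions and 31.6% of shared regions at promoters. All H3K27ac regions of chromosome 1 gave 50.9%, 24.6% and 14.9%. On the other autosomes FR-only regions gave 60.0%, 25.3% and 8.28%, and Pa-only regions 49.6%, 31.2% and 12.4%. FR-only regions were lower in GC content than Pa-only ones, with medians of 48.0% against 51.9% for H3K23su and 47.1% against 54.3% for H3K27ac on chromosome 1. The other autosomes gave 47.6% against 53.1%, and 46.1% against 55.1%. In the first 30 Mb, where the DNA is richer in GC, the medians were 51.9% and 56.9% for H3K23su and 52.96% and 57.4% for H3K27ac.

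Motifs were searched on both strands within 200 bp of the middle of each region. AP-1 (TGANTCA), bound by JUN and FOS family factors, was found in 27.1% (24.5 to 29.9) of FR-only H3K23su regions of chromosome 1 (288), 16.01% (12.8 to 19.6) of Pa-only regions (77), 16.4% of shared regions and 17.2% of all H3K23su regions on the chromosome. For H3K27ac it was found in 29.5% (26.9 to 32.1) of FR-only (370), 13.9% (10.9 to 17.3) of Pa-only (66), 19.8% of shared and 17.7% of all regions. The same order held on the other autosomes, with 27.2% against 14.9% for H3K23su and 30.5% against 16.1% for H3K27ac. The share among FR-only regions of the first 30 Mb, beside those of the rest of chromosome 1, was 22.4% (18.1 to 27.2) against 29.4% (26.1 to 32.9) for H3K23su, where the intervals overlap, and 21.8% (17.8 to 26.2) against 32.9% (29.8 to 36.2) for H3K27ac, where they do not. All regions of the first 30 Mb held it in 15.3% in both marks.

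The FOX motif (TGTTTAC) was in 10.6% of FR-only and 5.41% of Pa-only H3K23su regions and in 11.5% (144) and 19 of 475 H3K27ac regions, beside 6.25% and 6.23% of all regions on chromosome 1. The GATA motif (AGATAA) was in 22.997% and 16.4% of H3K23su and 25.2% and 14.9% of H3K27ac regions, beside 15.9% and 14.8% of all. It was in 13.99% and 15.1% of the FR-only regions of the 2 marks in the first 30 Mb. The GC-rich KLF motif (GGGNGTGG) ran the other way in H3K27ac, with 15.4% of FR-only and 22.3% of Pa-only regions, and was in 18.8% and 17.9% of H3K23su regions, beside 20.0% and 19.6% of all. Since the motifs differ in base composition and the classes in GC content, these shares are not independent of that difference.

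The 2 marks rarely disagreed in direction. Among the 1061 FR-only regions of H3K23su, 358 (33.7%) coincided by at least 1 bp with FR-only H3K27ac, 186 (17.5%) with shared H3K27ac and 5 (0.471%) with Pa-only H3K27ac. In all, 84.1% touched H3K27ac of some class. Among the 481 Pa-only regions of H3K23su, 89 (18.5%) coincided with Pa-only H3K27ac and 5 (1.04%) with FR-only H3K27ac, while 31.6% met no H3K27ac at all. The other autosomes gave 19.2%, 1.16% and 30.7%. Counted from the H3K27ac side, FR-only regions coincided with FR-only H3K23su in 28.2% (354) and with none in 28.03%, and Pa-only regions with Pa-only H3K23su in 18.9% (90). The other autosomes gave 28.7%, 26.3% and 19.6%. Pa-only H3K27ac regions met no H3K23su in 33.3% on chromosome 1, against 43.0% on the other autosomes. Where H3K23su was shared, H3K27ac was shared too in 80.3%, against 80.1% on the other autosomes. FR-only H3K23su of the first 30 Mb coincided with FR-only H3K27ac in 28.9% (99), against 36.1% on the other autosomes.

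Each region was then assigned to the nearest start of a protein-coding gene within 100 kb. A gene went with the skew when it had at least 1 FR-only region of each mark and no Pa-only region, and against it in the reverse case. Of 2092 protein-coding genes on chromosome 1, 242 went with it (11.6%, 10.2 to 13.02), beside 8.97% of the genes of all chromosomes, and 38 went against it (1.82%, 1.29 to 2.48), beside 3.24%. In the stretch of nearly the whole chromosome, taken over both marks, 235 of 2022 genes went with it and 35 against. In the first 30 Mb, 89 of 422 genes went with the skew (21.1%, 17.3 to 25.3) and 2 against it (0.474%, 0.0574 to 1.70). In the rest of the p arm, 66 of 671 went with it (9.84%) and 13 against (1.94%). On the q arm the counts were 87 (8.71%) and 23 (2.30%) of 999, close to the 8.86% and 3.40% of the other autosomes.

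Both genes that went against the skew in the first 30 Mb lay past 28 Mb. They were MED18, a subunit of the Mediator complex that links transcription factors to RNA polymerase, which starts at 28655513, and MECR, a reductase of mitochondrial fatty acid synthesis, which starts at 29557454. Each had 1 Pa-only region of each mark and no FR-only region, and each had promoter peaks of both marks in every library. The MED18 promoter scored 4.61, 3.99, 5.55 and 4.88 for H3K23su and 6.40, 7.03, 12.4 and 7.50 for H3K27ac in HCT15-Pa replicates 1 and 2 and HCT15-FR replicates 1 and 2. The MECR promoter scored 5.77, 6.10, 6.24 and 8.80 for H3K23su and 10.01, 8.82, 11.3 and 10.08 for H3K27ac in the same order. At both genes both HCT15-FR scores lay above both HCT15-Pa scores in both marks. These are scores and not percentiles, so the difference in scale between libraries is not taken out.

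A weaker form of going against it, more Pa-only than FR-only regions of both marks together, was seen for 26 of 422 genes in the first 30 Mb (6.16%), beside 16% of the genes of all chromosomes. More FR-only regions were seen for 223 (52.8%), beside 30.3%. In the rest of chromosome 1 the shares were 16.3% and 28.1%, and on the other autosomes 16.5% and 30.6%. The 4 with most Pa-only regions besides MED18 and MECR, chosen after their values were seen, were MFAP2, an elastic microfibril protein (2 FR-only against 3 Pa-only), TTC34 (1 against 3), CROCC, the ciliary rootlet protein (0 against 2), and PLA2G2C, a phospholipase A2 gene copy (1 against 2). MFAP2 and CROCC start at 17307127 and 17066768, in the interval from 17 to 18 Mb where Pa-only H3K23su regions outnumbered FR-only ones.

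**Figure D5:**
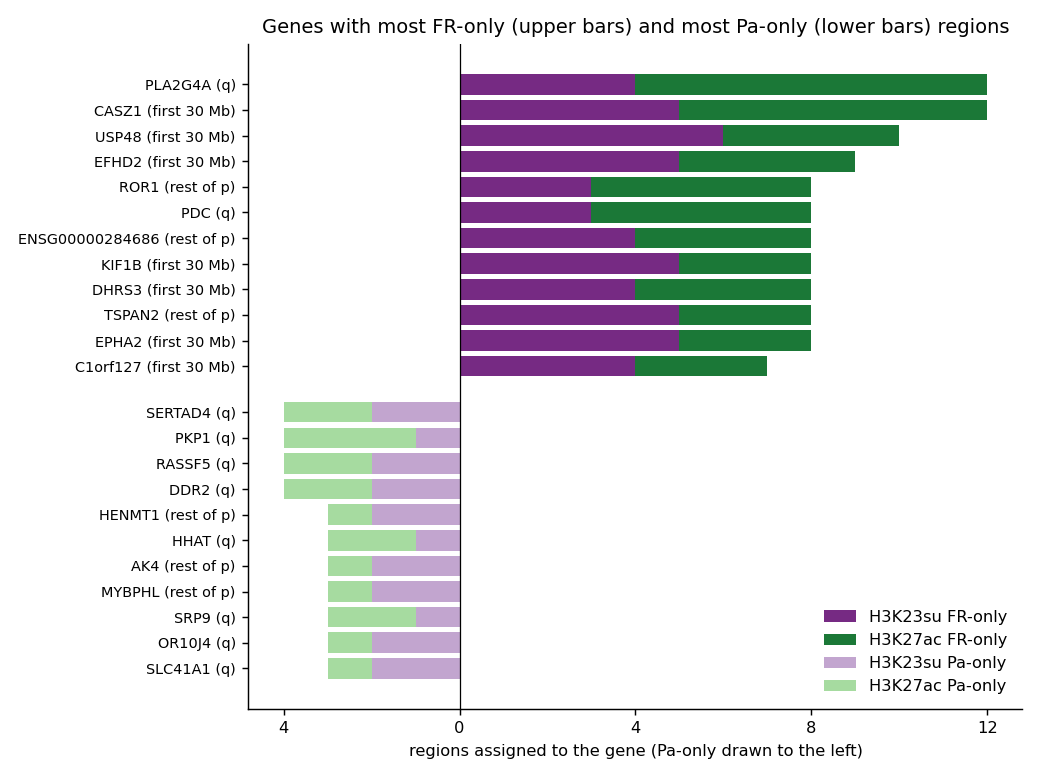
Number of FR-only regions (to the right) and Pa-only regions (to the left) assigned to the genes with most of them that went with (upper 12 bars) and against (lower bars) the skew; dark purple and dark green are H3K23su and H3K27ac FR-only regions, and the pale colours are Pa-only regions, with the place of each gene in brackets. The upper 12 reach 7 to 12 regions and 7 of them lie in the first 30 Mb, while the lower bars reach 3 or 4 regions and none lies there.

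Of the 12 genes with most Pa-only regions that went against the skew, 0 lay in the first 30 Mb, 4 in the rest of the p arm and 8 on the q arm. SERTAD4 had 2 of each mark, and its promoter was Pa-only in both, with 6.62 and 5.54 for H3K23su and 4.16 and 4.52 for H3K27ac. PKP1, a plakophilin of desmosomes, had 1 and 3, and RASSF5, a RAS-binding effector, and DDR2, a collagen receptor kinase, had 2 and 2 each. Each of these had 4 Pa-only regions, the most of any gene that went against the skew.

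A further 11 genes had 3 Pa-only regions, and the 7 described here were those with the highest percentile of the weaker peak. The promoter of HENMT1 was Pa-only in both marks, with 8.23 and 5.49 for H3K23su and 11.1 and 12.05 for H3K27ac. HHAT, which attaches palmitate to Hedgehog proteins, had promoter scores of 4.32 and 4.21 for H3K23su and 6.54 and 6.04 for H3K27ac in HCT15-Pa and none in HCT15-FR. It lies beside SERTAD4 in the interval from 210 to 211 Mb, which had 1 FR-only and 12 Pa-only regions. AK4, a mitochondrial adenylate kinase, had 4.68 and 5.45, and 5.93 and 6.11, again in HCT15-Pa alone. SRP9, of the signal recognition particle, showed that a gene can go against the skew by its distal regions alone: its promoter had peaks in all 8 libraries, with H3K23su scores of 7.14 and 6.40 in HCT15-Pa and 10.3 and 10.8 in HCT15-FR, and H3K27ac scores of 21.1 and 23.7, and 26.3 in each HCT15-FR library. MYBPHL, a heart muscle protein, SLC41A1, a magnesium transporter, and the olfactory receptor gene OR10J4 had 2 Pa-only regions of H3K23su and 1 of H3K27ac. SLC41A1 likewise had promoter peaks of both marks in all libraries.

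Of the 12 genes with most FR-only regions that went with the skew, 7 lay in the first 30 Mb, 3 in the rest of the p arm and 2 on the q arm. PLA2G4A, the cytosolic phospholipase A2 that releases arachidonic acid, had 4 FR-only H3K23su and 8 FR-only H3K27ac regions and no shared region. Its H3K27ac promoter peak was FR-only, with scores of 5.52 and 4.93, while for H3K23su it had a peak of 4.66 in HCT15-FR replicate 2 alone. PLA2G4A and PDC, the retinal protein phosducin (3 and 5), lie in the interval from 185 to 190 Mb, with its 24 FR-only and 2 Pa-only H3K27ac regions. ROR1, a receptor tyrosine kinase for WNT5A (3 and 5), ENSG00000284686 (4 and 4) and TSPAN2, a tetraspanin (5 and 3), lay in the rest of the p arm.

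At the gained end of the p arm, CASZ1, a zinc finger transcription factor, had 5 and 7 FR-only regions beside 10 and 8 shared ones. USP48, a deubiquitinase, had 6 and 4, EFHD2, a calcium-binding protein, 5 and 4, KIF1B, a kinesin, 5 and 3, DHRS3, a retinaldehyde reductase, 4 and 4, and C1orf127 4 and 3. At EPHA2, an ephrin receptor kinase, with 5 and 3, the H3K23su promoter peak was FR-only (4.86 and 4.73), while H3K27ac peaks stood there in all libraries, at 9.48 and 9.61 in HCT15-Pa and 8.83 and 8.75 in HCT15-FR. Promoter peaks of both marks were present in all 4 libraries at USP48, EFHD2, KIF1B and DHRS3. At DHRS3 the H3K23su promoter scores were 4.76 and 3.95 in HCT15-Pa and 6.95 and 5.91 in HCT15-FR, and the H3K27ac scores 3.83 and 4.01 against 7.20 and 6.76. At USP48 the H3K27ac scores overlapped, with 22.1 and 23.8 against 24.6 and 22.4.

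Promoters that switched in both marks were few and were not gathered in the first 30 Mb. Of 2092 promoters (peaks within 2 kb of the gene's start), 9 were FR-only in both marks (0.430%, beside 0.431% of the promoters of all chromosomes) and 13 Pa-only (0.621%, beside 0.704%). In the first 30 Mb 1 was FR-only in both, FAM43B (3.89 and 4.58 for H3K23su, 6.48 and 4.53 for H3K27ac in HCT15-FR), and 0 of 422 was Pa-only, with an exact interval that reaches 0.870%. The other 8 FR-only promoters were CFAP126, a protein of motile cilia (4.60 and 5.13 for H3K23su, 6.43 and 4.97 for H3K27ac), HPDL (5.52 and 6.54, 4.86 and 4.79), the potassium channel gene KCNJ9, DCDC2B, APOBEC4, C1orf100, the T cell co-stimulatory ligand TNFSF18 and KNCN. Besides HENMT1, AK4, SERTAD4 and HHAT, the Pa-only promoters included TGFB2, a secreted growth factor (5.29 and 5.75 for H3K23su, 4.65 and 5.47 for H3K27ac in HCT15-Pa), JAK1, a kinase of cytokine receptors (4.79 and 3.95, 5.09 and 6.29), SAMD13, CYP4B1, PPFIA4 and NEXN. For JAK1 the start used was the most upstream one annotated, and it had 4 FR-only and 3 Pa-only regions in all.

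Lists of chromosome 1 genes by function give the same values by pathway. Of 12 Eph, DDR and other receptors, 6 went with the skew and 1 against, with 43 FR-only and 8 Pa-only regions. EPHA2 and ROR1 had 8 FR-only regions and no Pa-only one, EPHB2 and TGFBR3, the TGF-beta co-receptor betaglycan, 6 and 0, and EPHA8 and IL6R, the interleukin-6 receptor, 4 and 0. DDR2 had 0 and 4, and PTPRF, a receptor tyrosine phosphatase, 2 and 3. Of 27 other transcription factors, 7 went with it and 0 against, with 64 and 18 regions. CASZ1 had 12 and 0, PROX1, a factor of lymphatic and liver development, 7 and 0, SOX13 6 and 0, and LHX4 5 and 0. Beside these and the lists below, 242 of 2092 genes on chromosome 1 went with the skew (11.6%) and 38 against (1.82%), with 1851 and 742 regions. No line-restricted region was assigned to 1015 genes (48.5%). The lists are short, and none was tested against these shares.

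Of 8 enzymes of 5-fluorouracil, pyrimidine and folate metabolism, 1 went with the skew, 0 against and 6 had no line-restricted region. CMPK1, the kinase of UMP and CMP, had 0 and 1. Of 11 Wnt pathway genes 2 went with it, with 9 and 3 regions in all: WNT4, BCL9, CTNNBIP1 and LGR6 had 2 and 0 each and WNT9A 1 and 2. Of 14 RAS-MAPK genes 2 went with it, with 12 and 2 regions. MAPKAPK2, a kinase downstream of p38, had 3 and 0, the phosphatase DUSP10 2 and 0, and NRAS 0 and 0. JUN, an AP-1 subunit, had 4 and 1. All 14 RAS-MAPK genes had promoter peaks of both marks in all libraries.

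Of 16 p53 targets, cell cycle and apoptosis genes 2 went with the skew, beside 11.6% of all genes of chromosome 1, with 22 and 5 regions. GADD45A, induced by DNA damage, had 6 and 0, CASP9, the initiator caspase of the mitochondrial pathway, 3 and 0, CDC7, a kinase of replication origins, 3 and 1, and the p53 inhibitor MDM4 2 and 2. All 16 promoters had peaks of both marks in all libraries. Of 8 Notch genes 1 went with it (12 and 2 regions, NOTCH2 with 5 and 1 and HES2 with 3 and 0). Of 16 chromatin enzymes 2 went with it (17 and 8 regions), among which the histone demethylase KDM1A had 4 and 1, the remodeller subunit ARID1A 3 and 0 and the methyltransferase SMYD2 3 and 0. Of 5 AP-1 and ATF factors none went either way, with 8 and 3 regions.

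Intestinal genes were the most mixed list, with 3 of 17 with the skew, 2 against and 22 and 16 regions. PLA2G2A, a secreted phospholipase of Paneth cells, had 6 and 0, CHI3L1 3 and 0 and the guanylin gene GUCA2A 3 and 0, while CLCA4 had 0 and 2. LAMC1 had 3 and 3. Of 24 S100 and epidermal differentiation genes, clustered early on the q arm, 0 went either way and 16 had no line-restricted region. They had 4 FR-only and 6 Pa-only regions, with S100A10 at 3 and 0.

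By place, 10 of the 28 listed genes in the first 30 Mb went with the skew and 0 against, with 76 FR-only and 10 Pa-only regions. Of all genes there, 21.1% went with it and 0.474% against. In the rest of the p arm 6 of 45 listed genes went with it and 2 against (56 and 19), and on the q arm 10 of 83 and 1 (78 and 41). Over all genes of these parts the shares were 9.84% and 1.94%, and 8.71% and 2.30%. Chosen after their values were seen, genes in the first 30 Mb with 6 or 7 FR-only and no Pa-only regions also included ERRFI1, a feedback inhibitor of the EGF receptor (2 of H3K23su and 5 of H3K27ac), ZDHHC18, a palmitoyltransferase (5 and 2), and CAMTA1, a transcription factor (1 and 5). At ERRFI1 the H3K27ac promoter scores were 11.3 and 10.1 in HCT15-Pa and 21.2 and 20.9 in HCT15-FR. At ZDHHC18 the H3K23su promoter peak was FR-only, at 6.07 and 9.48.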

How the data were processed

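CUT&Tag for H3K23su and H3K27ac was made from HCT15-Pa and HCT15-FR cells, with 2 libraries per line and mark. The authors aligned reads to hg19 with Bowtie2, removed duplicates and reads that were unmapped, secondary or not properly paired, and called peaks per library with MACS2 (broad mode for H3K27ac). No control library is stated. The deposited lists give each peak's position and a −log10 P score. They hold no read counts, so the depth of each library is unknown here, and a weak peak can be missed in a shallower library.

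The chromosome 1 regions and gene lists were chosen with earlier results of these data known. Peaks with at least 1 bp in common or touching were merged per mark. Regions were placed in 5 Mb bins and assigned by midpoint to the nearest start of a protein-coding gene (GENCODE release 44 on GRCh37) within 100 kb, as in the study. Sequences came from GRCh37. Genes named were the 12 in each direction with most line-restricted regions of both marks and none of the other line (ties by the percentile of the weaker peak), promoters restricted to 1 line in both marks, and the strongest 3 regions per class. Other named genes belong to the lists or are said to have been chosen after their values were seen. Some genes and 1 region that these rules select are not reported here. The first 30 Mb and the chromosome's own share as a reference were chosen after the data had been seen. Alternatives changed the score threshold, merging, presence rule, bin width, reference, gene window and libraries used. The exact permutation test set for the share of peaks on chromosome 1 is not read, since its p cannot go below 0.33 with 2 libraries against 2 and its values chose the chromosome. No other test between lines was run. The steps ran in Python 3.11.15 with numpy 2.4.6, pandas 2.3.3, scipy 1.17.1 and pysam 0.24.0, figures in matplotlib 3.10.9, and were tested on simulated data.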

Additional observations from a re-analysis of the deposited data

How the results depend on the processing

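Of 344 alternative values, 242 stayed close to the reported one and 102 moved. A turn of direction was looked for only in the excesses over the other autosomes, not in counts. Among those whose interval excluded 0, 0 turned. The q arm excess, not distinct from 0, changed sign in both marks (−2.44 to 7.74 points for H3K23su, reported 2.38, and −0.896 to 2.26 for H3K27ac, reported −0.0217). The stretch against the share of chromosome 1 itself kept its place in 52 of 52 (start 0 to 5 Mb, end 27.5 to 30 Mb), and the excess of the first 30 Mb over the other autosomes was above 0 in 12 of 12 per mark (14.4 to 25.9 percentage points for H3K23su, 13.9 to 29.8 for H3K27ac). The excess of the whole chromosome fell to 2.93 points (H3K23su) and 1.07 (H3K27ac) without the first 30 Mb, an alternative chosen after seeing the data like the own-share reference and the crossed pairing.

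The end of the stretch against the other autosomes was not stable. For H3K23su it was 70 Mb with the stronger 50% of each list, 249.25 with peaks within 5 kb merged, with 10 Mb bins and with an even split as reference, 247.5 with 2.5 Mb bins, 247.37 by single regions and 30 against the own share. For H3K27ac it was 200, 125 (presence by 50% of the region), 130 (10 Mb bins) and 30. With the stronger 50%, FR-only and Pa-only regions numbered 503 and 242 (H3K23su) and 687 and 255 (H3K27ac), the q arm excess of H3K23su was −2.44 points, 134 genes of the stretch went with the skew and 5 of the first 30 Mb against. Merging within 5 kb left 564 and 689 FR-only regions and gave 7.74 points (q arm, H3K23su) and 29.8 (first 30 Mb, H3K27ac), and the presence rule gave 18.2 for the latter. Gene windows of 10 and 2 kb left 76 and 16 genes of the stretch with the skew and 21 and 13 against, and in the first 30 Mb 26 and 4 with it, with 0 against at 2 kb. With all gene types, 65 went against it and 6 in the first 30 Mb.

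Replicate numbers are shared by the lines, but nothing says that they pair samples: the deviations of same-numbered libraries over 47 bins had r of 0.303 (H3K23su) and −0.317 (H3K27ac). With a replicate block, in which 1 library of each line was compared within a pair and the counts of the 2 pairs were added, there were 6177 FR-only and 4654 Pa-only H3K23su regions and 6835 and 4771 of H3K27ac, and with the crossed pairing 6784 and 4720 of H3K27ac. The blocked excess for H3K23su was 4.71 points for the chromosome, 7.65 for the p arm, 5.01 for the stretch and 14.8 for the first 30 Mb, and 17.4 for H3K27ac there.

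Leaving out 1 library changes what FR-only and Pa-only mean, since 1 library then stands for its line. FR-only regions ranged from 1471 to 2458 (H3K23su) and 1653 to 2871 (H3K27ac), highest without an HCT15-FR library, and Pa-only regions from 668 to 1904 and 650 to 1973, highest without an HCT15-Pa library. The balance of the raw counts on chromosome 1 was therefore not stable. Without an HCT15-Pa library the ratio of FR-only to Pa-only regions fell as low as 0.773 (H3K23su) and 0.838 (H3K27ac). Pa-only regions then outnumbered FR-only ones. Without an HCT15-FR library the ratio rose as high as 3.68 and 4.42. The excess ranged for H3K23su from 4.97 to 6.39 points (chromosome), 7.41 to 10.1 (p arm), 5.07 to 6.87 (stretch) and 14.4 to 20.3 (first 30 Mb), and for H3K27ac from 7.50 to 10.1 (p arm) and 13.9 to 23.1 (first 30 Mb). The end of the stretch ranged from 235 to 249.25 Mb and, for H3K27ac, from 95 Mb (without HCT15-FR replicate 2) to 249.25. Genes of the stretch with the skew ranged from 142 (without HCT15-Pa H3K23su replicate 1) to 296 and against it from 25 to 76, and in the first 30 Mb from 50 to 111 and from 1 to 9.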

Other observations

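The peak lists hold presence, position and score, not reads, so that a region without a peak may still carry the mark below the caller's threshold. The AP-1, FOX, GATA and KLF shares all moved with a window of 100 bp in place of 200 bp, and AP-1 was then in 14.7% of FR-only and 7.28% of Pa-only H3K23su regions of chromosome 1. The smallest p of an exact permutation test between lines is 0.33, as each line has 2 libraries. DNA copy number, chromatin accessibility and expression of these lines were not analysed here, and their part in the skew of the first 30 Mb was not tested.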
